A study of Mus musculus with 11 samples.

Results

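Branched-chain amino acid uptake and catabolism was followed through 30 genes in the inguinal fat pad of mice, a white adipose depot under the skin. The genes were chosen by their known place in the pathway, although earlier results of these data were known when they were chosen. They are 30 of the 52282 genes that the transcript tables summed to. Of those, 26960 genes passed the filter on low counts, among them all 30 members. The 11 RNA-seq libraries came from C57BL6/J mice aged 16 weeks, all fed a high-fat diet for 8 weeks from an age of 8 weeks. Knockout mice (KO) carried a floxed Raptor gene (Rptor) and Cre recombinase driven by the adiponectin promoter, which is active in adipocytes, so that other cells of the depot kept Raptor. Controls (WT) carried the floxed Raptor gene without Cre. Raptor is the subunit that defines the growth-controlling kinase complex mTORC1, and rosiglitazone, given in the diet at 30 mg per kg per day, is an agonist of PPARG, the nuclear receptor that drives adipocyte differentiation. The series set out to ask how these regulators act together on the transcriptome of this depot. There were 3 libraries of WT on the diet alone, 3 of WT with rosiglitazone, 2 of KO on the diet alone and 3 of KO with rosiglitazone. The labels do not say how mice were assigned to libraries, so the spread between libraries may be partly technical. The 2 labels of each WT library disagree: in all 6, the title gives the treatment that the treatment field does not. The treatment field was followed. By title every rosiglitazone difference in WT changes sign and the differences of KO from WT at each treatment use the other WT libraries; the counts of members called are also given that way, whereas values of single genes follow the treatment field.

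Leucine, isoleucine and valine enter cells through exchangers at the plasma membrane and are then carried into mitochondria. There an aminotransferase removes the amino group, and the branched-chain ketoacid dehydrogenase complex (BCKDH) commits the resulting ketoacids to oxidation in an irreversible step. A kinase switches this complex off by phosphorylating its E1 alpha subunit, and a phosphatase switches it on again. After it the pathway splits: leucine carbon ends as acetyl-CoA and acetoacetate, whereas isoleucine and valine carbon ends largely as propionyl-CoA, which is turned into the TCA cycle intermediate succinyl-CoA. Adipocytes raise this pathway as they differentiate and use its carbon for lipid synthesis, and leucine is itself a signal that activates mTORC1.

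Of the 30 members, 25 have an entry in the RefSeq promoter table (GRCm38.p6), which holds 250 bases before and 50 bases after each start it lists. The entries for 4 members are shown here because these genes carry the main patterns: Echs1 and Mmaa were higher with rosiglitazone in WT, Ivd was lower in KO with and without rosiglitazone, and Aldh6a1 had the lowest KO to WT ratio among the members under rosiglitazone. Each runs 5′ to 3′ on the gene's strand, and capitals mark matches, on either strand, to the motifs named after them.
Echs1, chr7:140116372-140116671, minus strand: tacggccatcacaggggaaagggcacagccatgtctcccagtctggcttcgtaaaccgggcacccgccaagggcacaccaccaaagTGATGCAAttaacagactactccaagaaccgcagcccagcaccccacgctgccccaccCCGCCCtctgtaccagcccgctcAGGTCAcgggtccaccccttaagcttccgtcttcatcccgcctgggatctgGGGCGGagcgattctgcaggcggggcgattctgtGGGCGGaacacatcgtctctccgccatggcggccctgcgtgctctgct
Mmaa, chr8:79294912-79295211, minus strand: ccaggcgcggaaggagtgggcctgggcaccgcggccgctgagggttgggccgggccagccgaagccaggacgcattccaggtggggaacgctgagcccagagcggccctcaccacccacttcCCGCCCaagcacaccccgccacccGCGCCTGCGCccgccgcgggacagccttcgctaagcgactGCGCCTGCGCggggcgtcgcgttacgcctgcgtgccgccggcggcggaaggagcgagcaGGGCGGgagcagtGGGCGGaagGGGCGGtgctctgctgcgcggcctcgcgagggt
Ivd, chr2:118861744-118862043, plus strand: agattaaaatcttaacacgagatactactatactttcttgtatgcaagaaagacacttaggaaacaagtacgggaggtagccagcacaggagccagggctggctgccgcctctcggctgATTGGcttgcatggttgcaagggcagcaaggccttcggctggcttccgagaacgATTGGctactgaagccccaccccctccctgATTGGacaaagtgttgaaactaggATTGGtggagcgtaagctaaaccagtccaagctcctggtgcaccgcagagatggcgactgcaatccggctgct
Aldh6a1, chr12:84450975-84451274, minus strand: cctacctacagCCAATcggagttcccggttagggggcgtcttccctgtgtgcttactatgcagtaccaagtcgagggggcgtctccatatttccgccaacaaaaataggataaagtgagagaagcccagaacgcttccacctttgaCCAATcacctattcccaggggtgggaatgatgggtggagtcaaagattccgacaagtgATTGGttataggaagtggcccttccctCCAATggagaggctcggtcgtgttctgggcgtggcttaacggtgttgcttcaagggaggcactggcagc
The motifs were a direct repeat of the nuclear receptor half-site with 1 base between (DR1, AGGTCANAGGTCA, the arrangement PPARG binds), the half-site alone (AGGTCA, which every DR1 contains), the amino acid response motif of ATF4 (TGATGNAA) and the E-box CACGTG. An exact DR1 was in 0 of the 25 member promoters and in 0.0396% of all 32851 promoters of the table. AGGTCA was in 5 member promoters (20%, against 16.3% of all), those of Bckdhb, Ppm1k, Echs1, Hibadh and Pcca. TGATGNAA was in 1, Echs1 (3.97% of all promoters), and CACGTG in 1, Mccc2 (7.15% of all). 3 further motifs were searched after these had few matches. The GC box GGGCGG was in 15 of 25 (60%, against 35.7% of all), CCAAT was in 15 of 25 (60%, against 37.4%), and the NRF1 motif, GCGCA and GCGC with any base between, was in 4 of 25 (16%, against 4.6%), those of Dld, Hibadh, Pccb and Mmaa. In the sequences above, Echs1 holds an AGGTCA, a TGATGNAA and GC boxes, Mmaa holds GC boxes and NRF1 motifs, and Ivd and Aldh6a1 each hold 4 CCAAT matches. Each member was counted by 1 window, the one nearest its annotated gene start, whereas the share of all promoters counts every entry. The 2 shares are therefore not measured alike. The Slc3a2 window (chr19:8713848-8714147) lies inside the annotated gene (chr19:8706882-8723369, minus strand) and not at its start. These are matches of letters in a short window, and no binding was measured.

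Libraries held 13035346 to 40925952 estimated reads. Values are CPM, counts scaled to the library's size after TMM scaling, unless TPM, which also divides by transcript length, is named. Rptor itself stood at 92.01, 80.1 and 73.9 CPM in WT on the diet, 119, 126 and 111 in WT with rosiglitazone, 56.5 and 69.6 in KO on the diet, and 88.3, 82.4 and 91.7 in KO with rosiglitazone. Averaged over treatments it was lower in KO (log2 difference -0.41 ± 0.11, edgeR adjusted p = 0.0403). KO with rosiglitazone overlapped WT on the diet, and the call was lost without 9 of the 11 libraries taken singly. All 14 mature adipocyte markers had reads in every library, as the label of adipose tissue implies. Their summed level was 14970 to 44410 CPM in WT on the diet, 39450 to 45120 in WT with rosiglitazone, 3094 to 9292 in KO on the diet and 6144 to 6905 in KO with rosiglitazone, so every KO library lay below every WT library. Skeletal muscle markers took over 0.5% of reads in 3 libraries (muscle-rich), 1 each of WT on the diet, WT with rosiglitazone and KO with rosiglitazone. Summed B-cell markers were 21.4 to 31.9 CPM in 3 other libraries (B-cell-poor: the first WT library on the diet, the second WT library with rosiglitazone and the first KO library on the diet) and 163.6 to 976.6 CPM in the other 8. These libraries are kept in the main results, and main counts are also given without them. Leaving out the B-cell-poor libraries leaves 1 KO library on the diet. Member counts that use that group are then replaced by medians. In bulk tissue, fewer adipocytes and less RNA of a gene in each adipocyte cannot be told apart.

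On the length-corrected scale the members covered a wide range of levels. In WT on the diet the highest mean TPM were those of Ivd (119.7 ± 17.9, SD, n = 3), isovaleryl-CoA dehydrogenase of the leucine arm, and of Aldh6a1 (119 ± 36.8), methylmalonate semialdehyde dehydrogenase of the valine arm, which did not differ beyond their spread. Slc7a5, the plasma membrane exchanger LAT1, was the lowest of the 30 in both WT groups, at 4.83 ± 1.49 TPM on the diet and 1.94 ± 0.661 with rosiglitazone. With rosiglitazone Aldh6a1 led in WT at 213 ± 35.3 TPM, followed by Hibadh at 183 ± 35.1, and these again overlapped. In KO with rosiglitazone Aldh6a1 stood only at position 11 in the order of mean TPM, at 16.8 ± 8.03, whereas Ivd was first at 37.2 ± 14.7. For both genes the first library of that group was the lowest. These TPM sum all transcripts of a gene, also those that are not protein-coding. Protein-coding transcripts held on average 22.0% of Ivd TPM and 88.5% of Aldh6a1 TPM in WT on the diet. In KO with rosiglitazone they held 12.4% and 81.5%, so this order is not one of coding RNA.

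**Figure D1:**
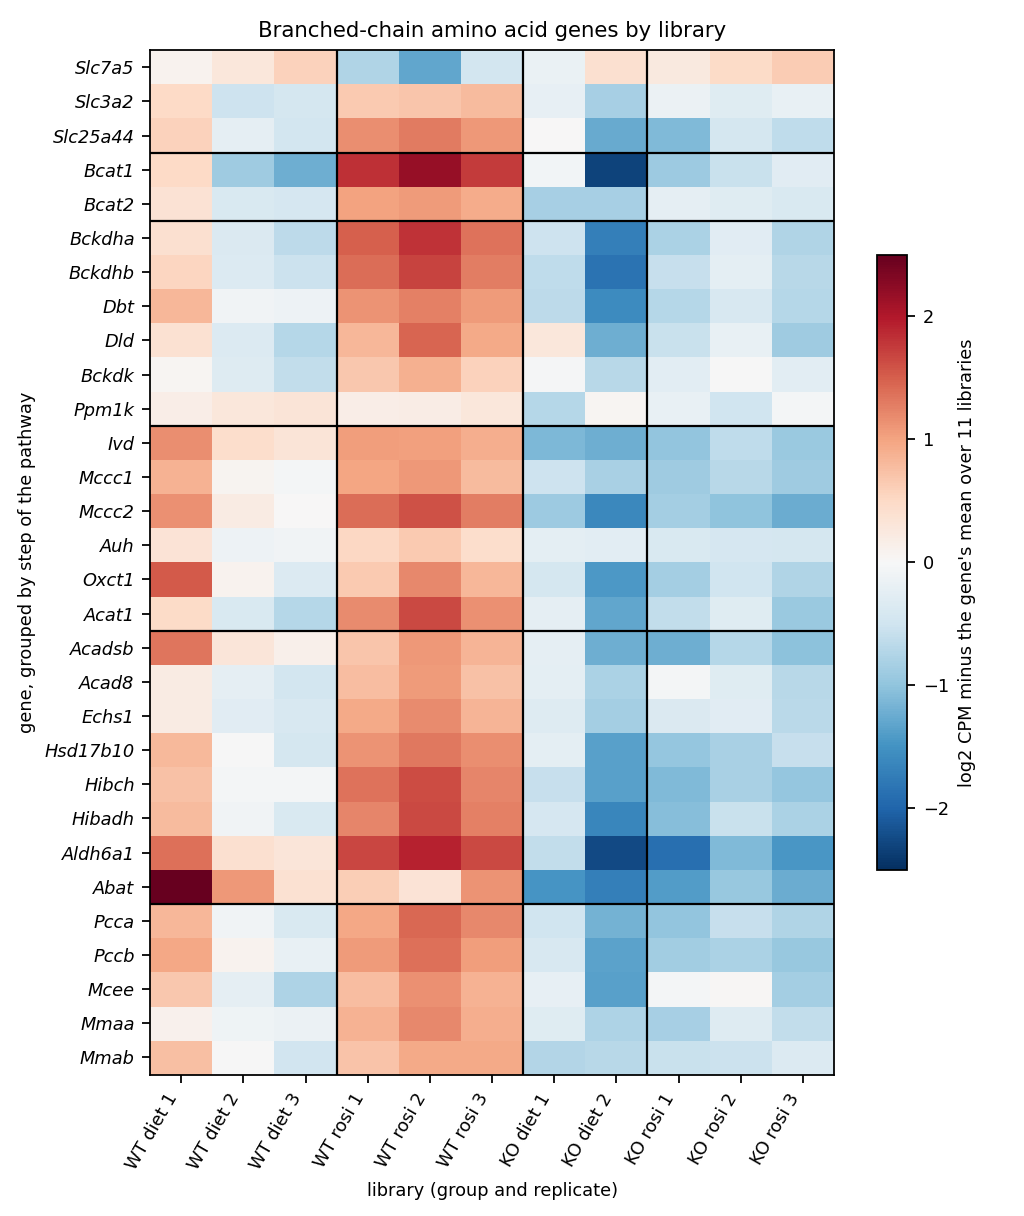
Each row is 1 of the 30 genes, grouped by pathway step, and each column 1 of the 11 libraries; colour is log2 CPM minus the gene's mean over all libraries, red above and blue below, with colours saturating at 2.5 in either direction. Most rows are reddest in the 3 WT libraries with rosiglitazone and blue in the 5 KO libraries, and Slc7a5 in the top row shows the opposite in the WT libraries with rosiglitazone.

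Rosiglitazone in WT was compared with the diet alone to see whether the PPARG agonist moved the pathway in mice with intact Raptor. 4 of the 30 members rose: Bcat2, the mitochondrial aminotransferase, Bckdha, the E1 alpha subunit of BCKDH, Echs1, the short-chain enoyl-CoA hydratase, and Mmaa, which loads cobalamin onto methylmalonyl-CoA mutase (edgeR adjusted p 0.0296 to 0.0427, where 1.55% of all tested genes rose). Slc7a5 was the 1 member that fell, with an adjusted p of 0.0497 just inside the threshold of 0.05 (0.593% of tested genes fell). These calls were not stable when each of the 11 libraries was left out singly. Those of Bcat2, Bckdha, Echs1 and Slc7a5 were each lost in 8 of these fits, and that of Mmaa in 6. The median log2 difference over the members was 0.98, against -0.05 over all tested genes, and 27 of 30 were above 0. At an unadjusted p under 0.05, 24 members were higher (9.93% of all genes) and 2 lower (7.5%), and DESeq2 called 15 higher (4.65%). The CPM of 22 members did not overlap between the groups in the higher direction (13.4% of all genes). Without the 3 B-cell-poor libraries, 27 members rose and Slc7a5 fell (11.9% and 7.47% of genes), and without the first WT library on the diet alone 24 rose (7.68% of genes). The B-cell-poor setting was chosen after the libraries were seen. It drops the first WT diet library, where the members summed to 3437 CPM, against 1846 and 1623 in the other WT diet libraries. B-cell markers still differed in the WT libraries kept, at 869.7 and 779.9 CPM on the diet and 329.7 and 163.6 with rosiglitazone. Without the 3 muscle-rich libraries 0 members passed in edgeR's test, as did no gene at all (0.0%), and the median was 0.86. With WT grouped by title every direction in this comparison is the opposite.

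Rosiglitazone in KO gave no call: 0 of 30 members passed in either direction, where 0.0111% of genes rose and 0.00371% fell. The smallest adjusted p was 0.57 (edgeR), 1 member, Bcat2, had an unadjusted p under 0.05 (4.09% of all genes were higher by that rule), and DESeq2 and limma-voom also called 0. The median log2 difference was 0.14. Without the B-cell-poor libraries, which left 1 KO library on the diet whose spread is taken from the other groups, 5 members rose: Slc3a2, Bcat1, Bckdha, Bckdhb and Dbt (2.87% of genes rose). Whether rosiglitazone acted differently in KO and WT was tested by the interaction, which called 0 members (0.0853% of genes higher, 0.0185% lower), and an unadjusted p under 0.05 was reached by 1 in the higher and 11 in the lower direction (4.9% and 5.64% of genes), and DESeq2 called 1 in each direction (1.23% and 0.738% of genes). Without the B-cell-poor libraries Bcat2, Mccc1, Auh and Hibch passed in the interaction, their rosiglitazone effect being smaller in KO than in WT (0.921% of genes). The median interaction over the members was -0.83, and 1.03 with WT grouped by title.

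KO was compared with WT to see what loss of adipocyte Raptor did at each treatment. With rosiglitazone, 26 of the 30 members were lower in KO (edgeR, adjusted p under 0.05, where 9.5% of genes were lower) and 1, Slc7a5, was higher (5.47% of genes). Only Ppm1k, Abat and Mcee did not pass, and all 3 were lower without the B-cell-poor libraries. The median log2 difference was -1.81, against 0.05 over all tested genes. The CPM of 29 members lay lower in all 3 KO libraries than in all 3 WT libraries (24.7% of genes). On the diet alone 1 member, Ivd, fell and 0 rose (0.111% and 0.026% of genes), with a median log2 difference of -0.87 and all 30 values below 0. At an unadjusted p under 0.05, 18 members were lower on the diet (5.92% of genes). In the lower direction 18 did not overlap (10.3%), and DESeq2 called 8 lower (1.91% of genes). Without the B-cell-poor libraries, which left 1 KO library on the diet, the median there was -0.94. Averaged over both treatments, a value that does not depend on which WT label is right, 23 members were lower in KO and 0 higher (8.2% and 4.57% of genes), with a median of -1.42. Without the B-cell-poor libraries 29 members were lower and 1 higher with rosiglitazone (15.1% and 11.4% of genes). Averaged over treatments, with 1 KO library on the diet, the median was then -1.38. With the WT libraries grouped by title, 24 members were lower on the diet (6.67% of genes) and 7 with rosiglitazone (1.32%). Without the 3 muscle-rich libraries 2 members were lower with rosiglitazone (0.32% of genes) and 7 averaged over treatments (1.28%), with medians of -1.86 and -1.47, as large as with them.

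**Figure D2:**
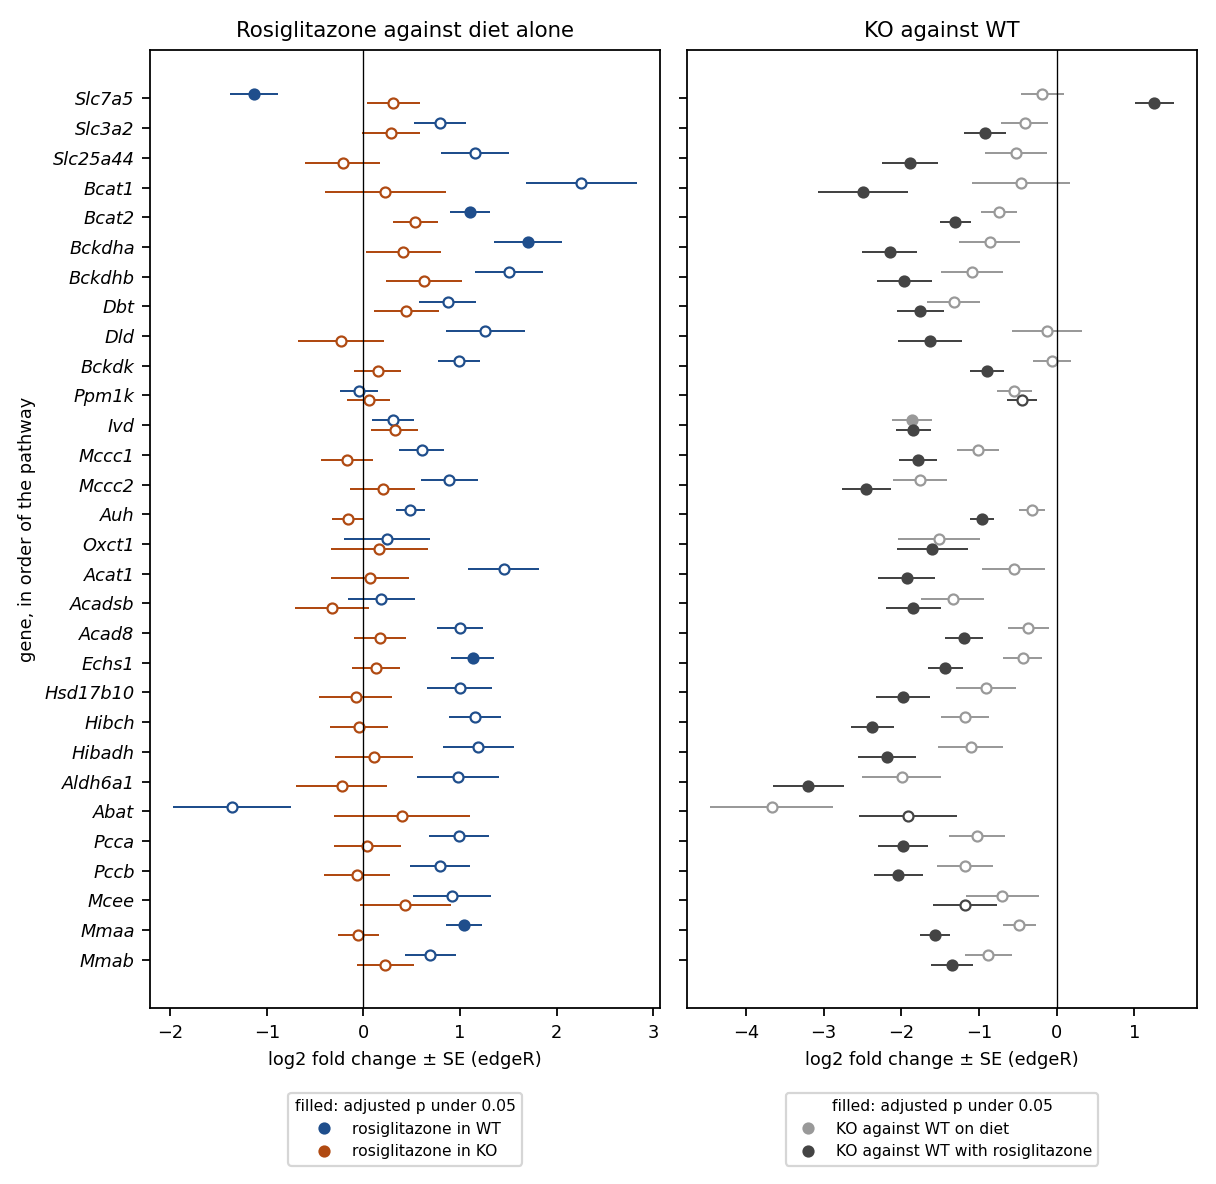
Points are edgeR log2 fold changes of the 30 members with bars of 1 standard error, for rosiglitazone against the diet alone in WT and KO (left) and for KO against WT on the diet and with rosiglitazone (right); filled points have an adjusted p under 0.05. For rosiglitazone in WT 5 points are filled and in KO none is, and for KO against WT with rosiglitazone 27 are filled, all left of 0 except Slc7a5 at 1.26.

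Among the genes of uptake, Slc7a5, which encodes the light chain of the LAT1 exchanger (chr8:121881150-121907694, minus strand, GRCm38), was called in the opposite direction to the other called members. Its level was 10.8, 12.4 and 15.1 CPM in WT on the diet, 6.08, 4.11 and 7.36 in WT with rosiglitazone, 9.11 and 13.3 in KO on the diet, and 12.03, 14.1 and 15.7 in KO with rosiglitazone. The 3 WT libraries with rosiglitazone lay below all 8 others. The log2 difference was -1.13 ± 0.25, edgeR adjusted p = 0.0497 for rosiglitazone in WT, and 1.26 ± 0.25, edgeR adjusted p = 0.0107 for KO against WT with rosiglitazone, while KO with rosiglitazone and WT on the diet overlapped. Slc3a2, the heavy chain that brings LAT1 to the membrane, stood at 86.9, 42.8 and 45.2 CPM in WT on the diet, 97.5, 100.3 and 106 in WT with rosiglitazone, 53.2 and 34.6 in KO on the diet, and 55.98, 50.2 and 54.4 in KO with rosiglitazone. With rosiglitazone it was lower in KO than in WT (-0.92 ± 0.27, edgeR adjusted p = 0.0465), so the 2 chains of the exchanger differed in opposite directions between these groups. Slc25a44, the carrier that takes branched-chain amino acids into mitochondria, stood at 74.2, 42.2 and 35.98 CPM in WT on the diet, 111, 122 and 106 in WT with rosiglitazone, 50.1 and 20.8 in KO on the diet, and 23.1, 36.4 and 32.2 in KO with rosiglitazone. Its KO libraries with rosiglitazone lay far below the WT ones (-1.88 ± 0.36, edgeR adjusted p = 0.00918), and averaged over treatments it was lower in KO as well (-1.20 ± 0.27, edgeR adjusted p = 0.0189). Slc7a5 and 14 other members are overlapped by an annotated gene on the opposite strand, and since the labels name no strand, reads of such pairs may not be separable.

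The aminotransferases are encoded by Bcat1, whose enzyme is cytosolic, and Bcat2, whose enzyme is mitochondrial. Bcat2 (chr7:45570153-45589711, plus strand) stood at 82.1, 49.1 and 47.98 CPM in WT on the diet, 128, 135 and 122 in WT with rosiglitazone, 35.95 and 35.7 in KO on the diet, and 55.1, 51.7 and 49.2 in KO with rosiglitazone. All WT libraries with rosiglitazone were above all others, and all KO libraries on the diet were below all others. It rose with rosiglitazone in WT (1.10 ± 0.20, edgeR adjusted p = 0.0306). With rosiglitazone it was lower in KO than in WT (-1.30 ± 0.21, edgeR adjusted p = 0.00430). Within KO the rosiglitazone difference was 0.54 ± 0.23 (edgeR adjusted p = 0.570). Bcat1 stood at 27.6, 10.6 and 8.45 CPM in WT on the diet, 69.3, 88.1 and 65.5 in WT with rosiglitazone, 18.8 and 3.95 in KO on the diet, and 10.5, 13.3 and 15.99 in KO with rosiglitazone. The WT libraries with rosiglitazone were far above all others, but the difference of 2.25 ± 0.57 did not pass (edgeR adjusted p = 0.0784). It was lower in KO than in WT with rosiglitazone (-2.49 ± 0.58, edgeR adjusted p = 0.0210). In both diet groups the highest Bcat1 value belonged to the library low in B-cell markers. The part that cell makeup has in this was not tested, and without those libraries the rosiglitazone difference in WT was 2.83 ± 0.21 (edgeR adjusted p = 9.31e-05).

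**Figure D3:**
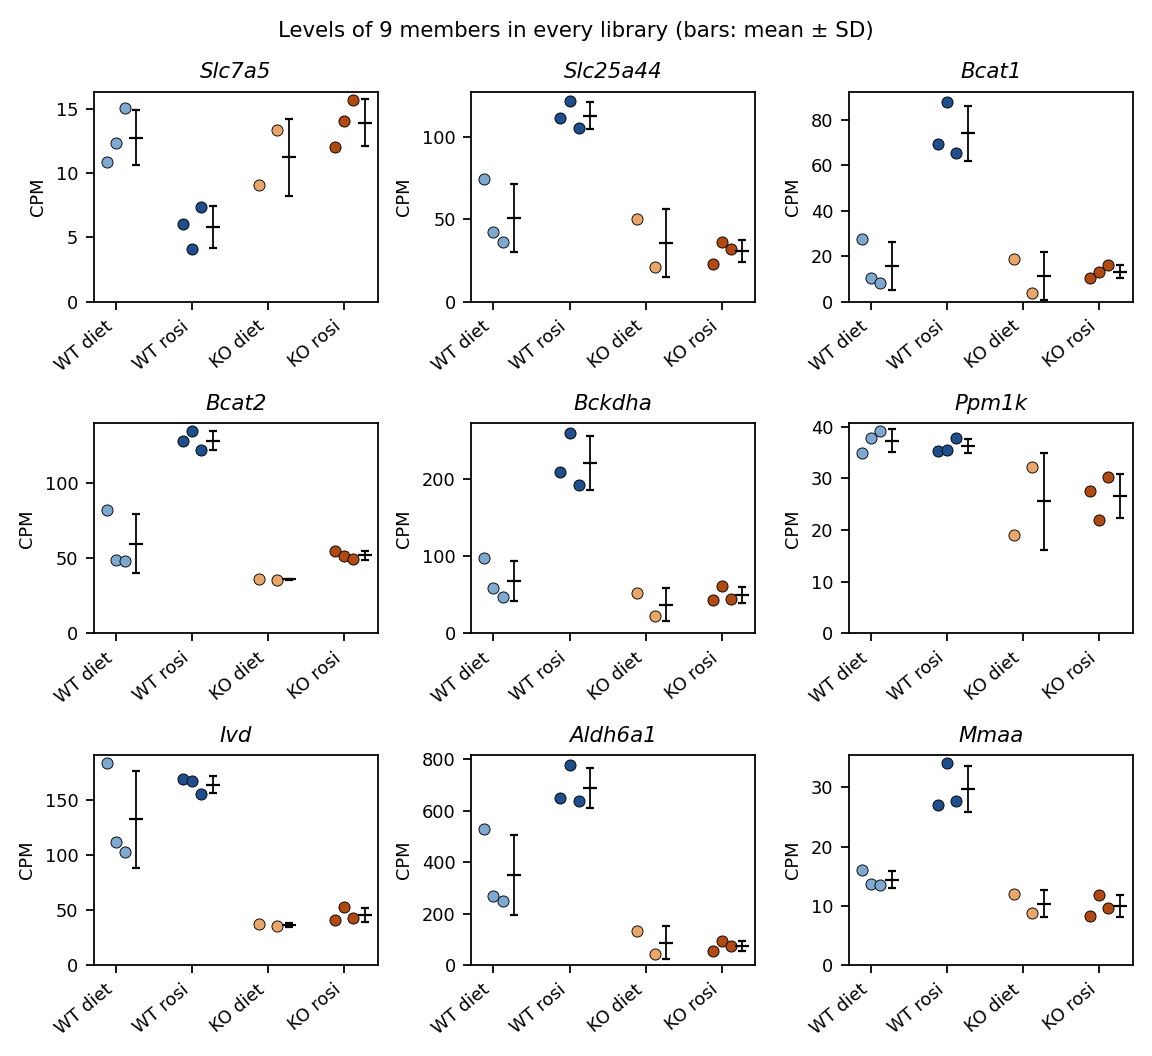
CPM of 9 members in each library, by group, with bars of mean ± SD beside the points; every axis starts at 0. Slc7a5 is lowest in WT with rosiglitazone, Ppm1k is level between the WT groups, Ivd is at 102.6 to 183.1 CPM in WT and at 35.3 to 52.6 in KO, and the other panels peak in WT with rosiglitazone.

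BCKDH is built from E1 (Bckdha and Bckdhb), E2 (Dbt) and E3 (Dld, which other dehydrogenase complexes share). Bckdha (chr7:25629946-25658981, minus strand) stood at 98.1, 58.4 and 47.7 CPM in WT on the diet, 210.0, 260.3 and 193 in WT with rosiglitazone, 52.3 and 22.8 in KO on the diet, and 43.3, 61.8 and 44.5 in KO with rosiglitazone. The 3 WT libraries with rosiglitazone were above all others. It rose with rosiglitazone in WT (1.70 ± 0.35, edgeR adjusted p = 0.0427), a 3.25-fold difference. With rosiglitazone it was lower in KO than in WT (-2.15 ± 0.36, edgeR adjusted p = 0.00539). Within KO the rosiglitazone difference was 0.41 ± 0.39 (edgeR adjusted p = 0.865). Bckdhb, the E1 beta subunit, stood at 55.6, 30.4 and 26.5 CPM in WT on the diet, 101, 125 and 92.97 in WT with rosiglitazone, 24.7 and 10.7 in KO on the diet, and 25.7, 32.7 and 23.7 in KO with rosiglitazone. Dbt stood at 70.5, 37.2 and 36.03 CPM in WT on the diet, 85.9, 94.7 and 82.8 in WT with rosiglitazone, 25.1 and 13.3 in KO on the diet, and 24.00, 30.04 and 24.2 in KO with rosiglitazone. Both had the same order of group means as Bckdha. Both were lower in KO than in WT with rosiglitazone (-1.96 ± 0.36, edgeR adjusted p = 0.00742 for Bckdhb, and -1.75 ± 0.30, edgeR adjusted p = 0.00632 for Dbt). Dld stood at 116, 69.6 and 54.2 CPM in WT on the diet, 159, 244 and 172 in WT with rosiglitazone, 108 and 37.8 in KO on the diet, and 60.5, 78.2 and 47.7 in KO with rosiglitazone. One KO library on the diet, the first, lay among the WT diet libraries for Dld. The difference of KO from WT with rosiglitazone was -1.62 ± 0.41, edgeR adjusted p = 0.0276.

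The kinase and the phosphatase that control the complex were set beside its subunits. Bckdk, the kinase that inactivates E1 alpha, stood at 45.7, 35.4 and 28.9 CPM in WT on the diet, 70.5, 81.9 and 65.5 in WT with rosiglitazone, 43.2 and 27.2 in KO on the diet, and 36.7, 43.8 and 36.5 in KO with rosiglitazone. KO and WT overlapped on the diet (-0.06 ± 0.24, edgeR adjusted p = 0.969), and with rosiglitazone Bckdk was lower in KO (-0.90 ± 0.22, edgeR adjusted p = 0.0239). Ppm1k, the phosphatase that reactivates E1 alpha, stood at 34.96, 37.8 and 39.2 CPM in WT on the diet, 35.3, 35.6 and 37.8 in WT with rosiglitazone, 18.96 and 32.2 in KO on the diet, and 27.6, 21.99 and 30.2 in KO with rosiglitazone. The 6 WT libraries spanned only 35.0 to 39.2 CPM, and the rosiglitazone difference was -0.04 ± 0.20, edgeR adjusted p = 0.935. All 5 KO libraries were below all 6 WT libraries, but the difference averaged over treatments missed the threshold (-0.50 ± 0.15, edgeR adjusted p = 0.0573).

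Because a ratio of 2 genes in 1 library does not depend on how the library is scaled, 4 ratios of log2 TPM were tested with a two-sided exact permutation test over libraries within treatment or genotype (200 regroupings, smallest possible p 0.005, Benjamini-Hochberg over 8 tests). The ratio of the kinase gene Bckdk to its target gene Bckdha was higher in KO by 0.83 log2 units (exact p = 0.005, the smallest the test can give, adjusted p = 0.04). As a plain ratio it was 0.456, 0.588 and 0.592 in WT on the diet, 0.33, 0.335 and 0.347 in WT with rosiglitazone, 0.651 and 0.903 in KO on the diet, and 0.846, 0.65 and 0.784 in KO with rosiglitazone. Every KO library was above every WT library. The difference was 0.93 without the muscle-rich libraries, where 36 regroupings allow no exact p below 0.0556, and 0.89 without the B-cell-poor libraries, where 30 regroupings allow none below 0.0333. Both exact p were at these limits, so neither smaller test says whether the call is stable. The ratio of Slc7a5 to Slc25a44 was 1.85 log2 units higher in KO (exact p = 0.04, adjusted p = 0.16), and the ratios of Bcat1 to Bcat2 and of Bckdk to Ppm1k gave adjusted p from 0.23 to 0.41 for both effects. Rosiglitazone gave adjusted p of 0.2 for Bckdk to Bckdha, where the log2 difference was -0.35, and 0.296 for Slc7a5 to Slc25a44 (-0.95). These levels are transcripts, and phosphorylation of the complex was not measured.

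**Figure D4:**
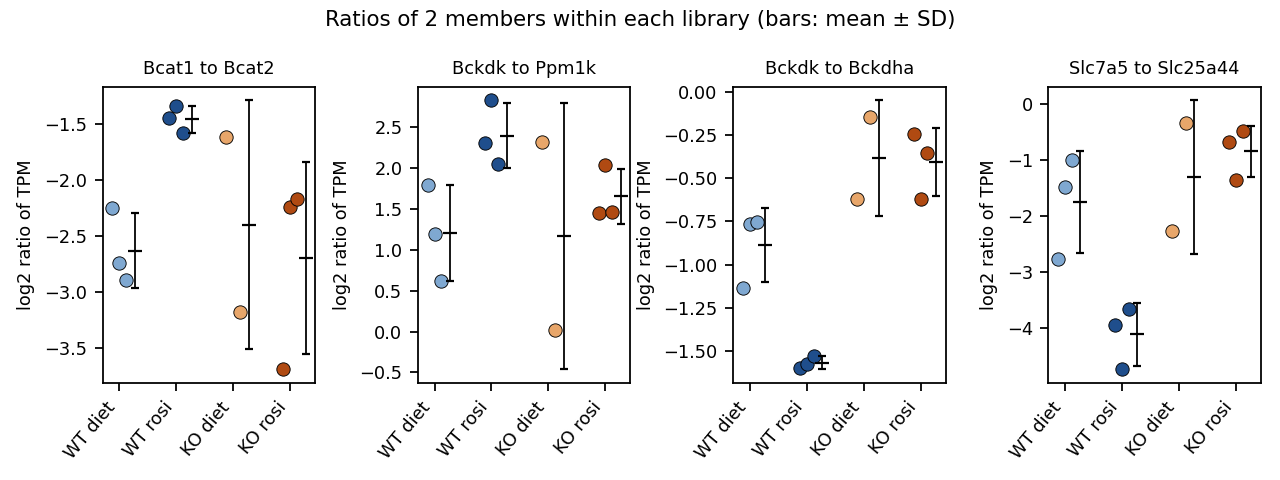
Log2 ratio of the TPM of 2 members in each library, by group, with bars of mean ± SD; the vertical axes differ between panels and do not start at 0. For Bckdk to Bckdha all 5 KO libraries lie above all 6 WT libraries, and the WT libraries with rosiglitazone form a tight low group at -1.60 to -1.53.

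In the leucine arm all 6 members were lower in KO than in WT, with rosiglitazone and averaged over treatments (9.5% and 8.2% of all genes). Of these members 0 rose with rosiglitazone in WT (1.55%). Ivd, which oxidises isovaleryl-CoA (chr2:118861954-118882909, plus strand), stood at 183, 112 and 103 CPM in WT on the diet, 169, 167 and 155 in WT with rosiglitazone, 37.7 and 35.3 in KO on the diet, and 41.3, 52.6 and 43.1 in KO with rosiglitazone. WT and KO libraries did not overlap and the WT groups did. The KO difference was nearly the same on the diet (-1.86 ± 0.26, edgeR adjusted p = 0.0381) and with rosiglitazone (-1.84 ± 0.23, edgeR adjusted p = 0.00151), and averaged over treatments it had the smallest p of the members (-1.85 ± 0.17, edgeR adjusted p = 0.000569). The call on the diet held without only 3 of the 11 libraries taken singly.

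Methylcrotonyl-CoA carboxylase, the biotin enzyme after Ivd, is made of Mccc1 and Mccc2. Mccc1 stood at 137, 78.4 and 72.5 CPM in WT on the diet, 148, 159 and 129.9 in WT with rosiglitazone, 52.5 and 42.7 in KO on the diet, and 40.2, 46.3 and 40.6 in KO with rosiglitazone. Mccc2 stood at 77.6, 40.4 and 35.5 CPM in WT on the diet, 92.3, 107 and 85.04 in WT with rosiglitazone, 18.7 and 11.5 in KO on the diet, and 19.5, 17.6 and 14.9 in KO with rosiglitazone. For both, all KO libraries lay below all WT libraries, and Mccc2 had the larger difference averaged over treatments (-2.10 ± 0.24, edgeR adjusted p = 0.00125, against -1.40 ± 0.19, edgeR adjusted p = 0.00208 for Mccc1). Auh, the next hydratase, stood at 72.2, 52.5 and 53.8 CPM in WT on the diet, 81.5, 90.3 and 77.9 in WT with rosiglitazone, 48.1 and 47.6 in KO on the diet, and 43.6, 42.7 and 42.1 in KO with rosiglitazone. Its KO values were tight and its differences small (-0.96 ± 0.15, edgeR adjusted p = 0.00431 with rosiglitazone, -0.64 ± 0.11, edgeR adjusted p = 0.00774 averaged). Oxct1, which activates ketone bodies to acetoacetyl-CoA, stood at 406, 150.0 and 111 CPM in WT on the diet, 221, 322 and 249 in WT with rosiglitazone, 104 and 51.6 in KO on the diet, and 77.9, 99.9 and 83.4 in KO with rosiglitazone. Its first WT diet library was above all others, and the difference of KO from WT averaged over treatments was -1.56 ± 0.35, edgeR adjusted p = 0.0193. Acat1, the thiolase that releases acetyl-CoA, stood at 143, 78.7 and 62.8 CPM in WT on the diet, 231, 320.3 and 226 in WT with rosiglitazone, 88.1 and 41.5 in KO on the diet, and 67.2, 82.98 and 53.9 in KO with rosiglitazone. Unlike Ivd and Oxct1, Acat1 had no overlap between the WT groups, although its rosiglitazone difference in WT did not pass (1.45 ± 0.37, edgeR adjusted p = 0.0728). It was lower in KO than in WT with rosiglitazone (-1.93 ± 0.37, edgeR adjusted p = 0.00938).

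In the isoleucine and valine arms 7 of 8 members were lower in KO than in WT with rosiglitazone, and all 8 averaged over treatments (9.5% and 8.2% of all genes). Aldh6a1 (chr12:84430717-84451004, minus strand), whose enzyme yields propionyl-CoA from valine, had the lowest KO to WT ratio of the 30 members with rosiglitazone. Its level was 527, 269 and 250.1 CPM in WT on the diet, 651, 778 and 637 in WT with rosiglitazone, 133 and 42.9 in KO on the diet, and 55.5, 95.3 and 74.4 in KO with rosiglitazone. The difference was -3.20 ± 0.46, edgeR adjusted p = 0.00300, a 9.17-fold lower level in KO, and on the diet it was -1.99 ± 0.51 (edgeR adjusted p = 0.187), with no overlap between the groups in either case. Hibch and Hibadh carry out the hydrolase and dehydrogenase steps just before it. Hibch stood at 109, 63.3 and 63.4 CPM in WT on the diet, 167, 203 and 153 in WT with rosiglitazone, 44.2 and 25.6 in KO on the diet, and 30.4, 37.3 and 33.5 in KO with rosiglitazone. Hibadh stood at 211, 115 and 93.7 CPM in WT on the diet, 283, 384 and 290.0 in WT with rosiglitazone, 90.95 and 39.3 in KO on the diet, and 58.3, 82.2 and 70.2 in KO with rosiglitazone. Both were lower in KO than in WT with rosiglitazone (-2.37 ± 0.28, edgeR adjusted p = 0.00131 for Hibch, -2.18 ± 0.38, edgeR adjusted p = 0.00635 for Hibadh). Hibch had the smallest adjusted p of the members in that comparison.

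Echs1 (chr7:140105710-140116476, minus strand), which hydrates the unsaturated intermediates of both amino acids, stood at 152, 108 and 98.7 CPM in WT on the diet, 251, 298 and 235 in WT with rosiglitazone, 104 and 72.4 in KO on the diet, and 101, 107 and 81.7 in KO with rosiglitazone. It rose with rosiglitazone in WT (1.13 ± 0.23, edgeR adjusted p = 0.0380), and its diet groups overlapped between genotypes. With rosiglitazone it was lower in KO than in WT (-1.43 ± 0.23, edgeR adjusted p = 0.00431). Within KO the rosiglitazone difference was 0.13 ± 0.25 (edgeR adjusted p = 0.961). Acadsb, the dehydrogenase of the isoleucine arm, stood at 274, 135 and 119 CPM in WT on the diet, 175, 229 and 195 in WT with rosiglitazone, 92.4 and 46.9 in KO on the diet, and 46.8, 66.4 and 53.6 in KO with rosiglitazone. Acad8, its counterpart in the valine arm, stood at 27.6, 20.4 and 17.3 CPM in WT on the diet, 41.01, 50.1 and 39.5 in WT with rosiglitazone, 20.1 and 13.7 in KO on the diet, and 23.1, 19.4 and 14.7 in KO with rosiglitazone. The WT groups overlapped for Acadsb (0.18 ± 0.35) but not for Acad8 (1.00 ± 0.24), and neither difference passed (edgeR adjusted p = 0.828 and 0.0640). Both genes were lower in KO than in WT with rosiglitazone (-1.85 ± 0.36, edgeR adjusted p = 0.00967, and -1.19 ± 0.24, edgeR adjusted p = 0.0113). Hsd17b10, the isoleucine-arm dehydrogenase, stood at 39.7, 22.5 and 16.7 CPM in WT on the diet, 49.8, 56.9 and 50.7 in WT with rosiglitazone, 19.2 and 8.91 in KO on the diet, and 11.6, 12.95 and 15.3 in KO with rosiglitazone. It was lower in KO than in WT with rosiglitazone (-1.98 ± 0.35, edgeR adjusted p = 0.00663).

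Abat, better known as the GABA transaminase and able to act on a side product of the valine arm and varied widely among the WT diet libraries. It stood at 105, 23.9 and 14.8 CPM in WT on the diet, 17.3, 14.4 and 24.5 in WT with rosiglitazone, 4.09 and 3.48 in KO on the diet, and 4.30, 5.87 and 4.79 in KO with rosiglitazone. The first WT diet library was far above the other two, all WT libraries were above all KO libraries, and KO was lower averaged over treatments (-2.79 ± 0.50, edgeR adjusted p = 0.00855), a call lost without the second KO library on the diet at nearly the same difference (-2.73, adjusted p = 0.0545). With rosiglitazone in WT the fitted difference was -1.36 ± 0.61 (edgeR adjusted p = 0.286), and without the B-cell-poor libraries, which include that first one, it was 0.11 ± 0.26 (adjusted p = 0.838), so its sign rests on them.

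Propionyl-CoA is carboxylated by Pcca and Pccb, epimerised by Mcee and isomerised by methylmalonyl-CoA mutase, whose cobalamin cofactor is supplied by Mmaa and Mmab. 4 of these 5 members were lower in KO than in WT with rosiglitazone (9.5% of all genes), and Mcee was the exception. Pcca stood at 94.1, 49.9 and 40.6 CPM in WT on the diet, 103, 143 and 121 in WT with rosiglitazone, 37.2 and 23.2 in KO on the diet, and 26.7, 35.2 and 31.4 in KO with rosiglitazone. Pccb stood at 127, 69.1 and 57.6 CPM in WT on the diet, 136, 168 and 135 in WT with rosiglitazone, 49.1 and 25.8 in KO on the diet, and 35.7, 37.9 and 33.6 in KO with rosiglitazone. The carboxylase subunits had nearly the same difference in KO with rosiglitazone (-1.97 ± 0.32, edgeR adjusted p = 0.00479 for Pcca, -2.04 ± 0.32, edgeR adjusted p = 0.00430 for Pccb). Mmaa (chr8:79263598-79294937, minus strand) stood at 16.1, 13.8 and 13.5 CPM in WT on the diet, 27.1, 34.1 and 27.7 in WT with rosiglitazone, 11.97 and 8.75 in KO on the diet, and 8.35, 11.9 and 9.71 in KO with rosiglitazone. It rose with rosiglitazone in WT (1.04 ± 0.19, edgeR adjusted p = 0.0296). With rosiglitazone it was lower in KO than in WT (-1.57 ± 0.19, edgeR adjusted p = 0.00153). Within KO the rosiglitazone difference was -0.053 ± 0.21 (edgeR adjusted p = 0.986). In no library did protein-coding transcripts hold more than 21.7% of Mmaa TPM. Mmab stood at 26.4, 15.8 and 11.3 CPM in WT on the diet, 25.7, 30.3 and 30.5 in WT with rosiglitazone, 9.55 and 9.83 in KO on the diet, and 10.8, 10.8 and 12.4 in KO with rosiglitazone. The WT groups overlapped for Mmab, and it was lower in KO than in WT with rosiglitazone (-1.35 ± 0.27, edgeR adjusted p = 0.0107). Mcee had the lowest mean CPM over all libraries, with values between 1.84 and 10.4, and its KO difference with rosiglitazone was -1.18 ± 0.41 (edgeR adjusted p = 0.0826).

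Of 42 other genes of the pathway, listed by their role, 41 were tested. With rosiglitazone in WT 10 rose and 0 fell (1.55% and 0.593% of all tested genes), and in KO 0 passed (0.0111% and 0.00371%). Of those that rose, all but Aacs and Lipt1 also belong to the fatty acid oxidation list described below. They are Acaa2, Acadm, Acads, Etfa, Etfb, Etfdh, Hadha and Hadhb, so the counts of these lists are not separate. In KO against WT with rosiglitazone 23 were lower and 3 higher (9.5% and 5.47%, median log2 difference -1.45), and averaged over treatments 20 were lower and 2 higher (8.2% and 4.57%). Those described here are among the genes with the smallest p. Klf15, a transcription factor known to induce branched-chain amino acid breakdown, stood at 46.8, 26.7 and 27.9 CPM in WT on the diet, 90.6, 75.7 and 96.8 in WT with rosiglitazone, 16.5 and 8.11 in KO on the diet, and 12.7, 19.7 and 16.7 in KO with rosiglitazone. Its difference was -1.94 ± 0.24, edgeR adjusted p = 0.00171 averaged over treatments, and 1.38 ± 0.31, edgeR adjusted p = 0.0507 for rosiglitazone in WT, just outside the threshold. Slc43a2, the LAT4 transporter, moved the other way, at 59.1, 69.99 and 74.6 CPM in WT on the diet, 62.3, 50.6 and 54.2 in WT with rosiglitazone, 114 and 88.3 in KO on the diet, and 149, 129 and 163 in KO with rosiglitazone. It was higher in KO with rosiglitazone (1.40 ± 0.17, edgeR adjusted p = 0.00156), as Slc7a5 was, and 8 of 10 macrophage markers were higher in the same comparison, their summed level being 625.9 to 780.2 CPM in WT and 2472 to 3067 in KO. The part of macrophages in the 2 transporters was not tested. Slc1a5, a glutamine transporter, stood at 1944, 955 and 735 CPM in WT on the diet, 2407, 2405 and 2449 in WT with rosiglitazone, 492 and 249.7 in KO on the diet, and 419, 432 and 414 in KO with rosiglitazone. It was lower in KO than in WT (-2.11 ± 0.31, edgeR adjusted p = 0.00312 averaged). Aacs, which activates acetoacetate in the cytosol, was lower in KO than in WT with rosiglitazone (-2.53 ± 0.28, edgeR adjusted p = 0.00109). So was Etfb, which takes electrons from the acyl-CoA dehydrogenases (-1.74 ± 0.35, edgeR adjusted p = 0.0111).

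Lists of neighbouring pathways were set beside the members as a description. With rosiglitazone in WT the median log2 difference was 1.56 for 21 genes of the TCA cycle and pyruvate dehydrogenase (9 higher) and 1.97 for 18 genes of fatty acid oxidation (11 higher), above the 0.98 of the branched-chain members (4 higher). In KO on the diet the medians were 0.04 and -0.19 for these lists and -0.87 for the branched-chain members, and 0, 0 and 1 of their genes passed. These rest on 2 KO libraries that differed widely. Their summed CPM were 3903 and 1626 for the TCA list, 2795 and 1020 for fatty acid oxidation, and 1408 and 805.4 for the members. With rosiglitazone the KO medians were alike, at -1.60, -1.78 and -1.81, with 20 of 21, 15 of 18 and 26 of 30 lower. For 18 genes of the ATF4 and amino acid response the KO median with rosiglitazone was -0.59, with 2 higher and 4 lower. These values rest on the WT labels: by title the KO medians were -1.57, -2.11 and -1.80 on the diet and 0.04, -0.01 and -0.59 with rosiglitazone, so that the lists lay closer together on the diet instead. The difference between lists was not tested.

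The members' summed CPM moved with the summed mature adipocyte markers. The members summed to 3437, 1846 and 1623 CPM in WT on the diet, 3952, 4854 and 3920.0 in WT with rosiglitazone, 1408 and 805.4 in KO on the diet, and 1081, 1303 and 1090.0 in KO with rosiglitazone. The adipocyte markers spanned a wider range than the members did, 3094 to 45120 CPM. Per 1000 CPM of adipocyte markers the members came to 77.4, 105.1 and 108.5 CPM in WT on the diet, 100.2, 107.6 and 94.8 in WT with rosiglitazone, 151.6 and 260.3 in KO on the diet, and 176.0, 188.8 and 160.9 in KO with rosiglitazone. On that scale every KO library was above every WT library and the WT groups overlapped, the reverse of the order in CPM. In an edgeR fit with the mean log2 adipocyte marker level as a covariate, 10 members were higher with rosiglitazone in WT (2.99% of genes). Bcat1 and Oxct1 were higher in KO with rosiglitazone (7.97% of genes). Ppm1k was the 1 member lower in KO with rosiglitazone (3.44%) and averaged over treatments (5.46%). As shares of the members, these counts for KO against WT lay below the shares of all genes, so they do not set the members apart. Markers and genotype do not overlap, so the covariate and the deletion cannot be told apart in that fit.

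**Figure D5:**
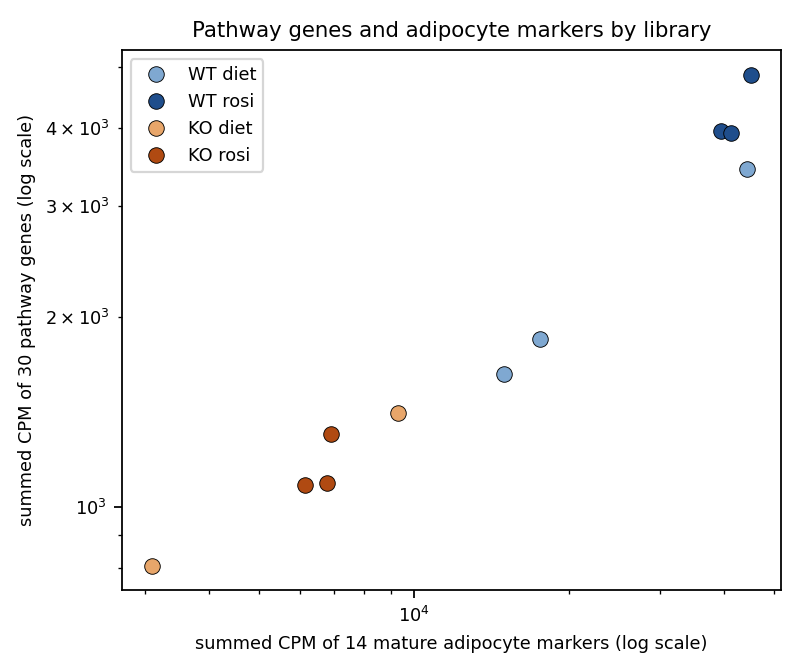
Each point is 1 library: summed CPM of 14 mature adipocyte markers (horizontal) against summed CPM of the 30 members (vertical), both on log scales. The 5 KO libraries lie lower left, at up to 9292 CPM of markers, and the WT libraries upper right, with the first WT diet library beside those given rosiglitazone.

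The deposited tables split each gene by transcript, and the share of a gene's TPM in protein-coding transcripts was examined after the gene-level results were seen. Of 27 members with more than 1 kind of transcript, 3 had a coding share lower in all 5 KO libraries than in all 6 WT libraries: Ivd, Mccc1 and Abat (11.1% of 27, against 1.66% of 10046 protein-coding genes). For Mccc1 the share was 57.3%, 51.6% and 45.5% in WT on the diet, 62.1%, 65.5% and 69.1% in WT with rosiglitazone, 36.7% and 11.9% in KO on the diet, and 20.6%, 29.8% and 28.9% in KO with rosiglitazone. For Abat it was 81.0% to 97.1% in WT and 53.4% to 68.1% in KO. For Ivd it was 20.1% to 25.5% in WT and 9.46% to 15.6% in KO, and the leading Ivd transcript was annotated as a processed transcript. The mean coding share was lower in KO for 22 of the 27 (81.5%), against 68.8% of all such genes, so a lower share in KO was common across the transcriptome. Low shares were not limited to those 3 members. For Mmaa the share was 10.8% to 16.3% in WT and 15.3% to 21.7% in KO, and its leading transcript was annotated as nonsense-mediated decay. Acadsb was led by a retained-intron transcript, and its mean share was higher in KO (43.0%) than in WT (17.9%). For Acad8 the means were 34.3% in WT and 19.7% in KO. For the members named here a part of the gene-level sums is RNA that does not encode the enzyme.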

How the data were processed

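RNA from inguinal fat was extracted with Trizol and made into Nextera XT libraries, per the labels' protocols. Per the submitters' processing notes, Salmon, edgeR, mm10 and GRCm38 were used, with no version. Per the file headers, the authors deposited 1 Salmon table for each of the 11 libraries, with an estimated count and a TPM, a level scaled to transcript length and library size, for each transcript. Estimated counts and TPM were summed per gene over 132288 transcripts with the GENCODE M21 annotation (131892 matched by identifier without version), and counts were rounded. edgeR 4.0.16 (R 4.3.3) fitted quasi-likelihood models over all 4 groups with TMM scaling and a filter on low counts by group. p-values were adjusted by Benjamini-Hochberg over the 26960 genes tested, with a threshold of 0.05, and standard errors were derived from the F statistics. Ratios used log2(TPM + 0.01). Alternatives were DESeq2 1.42.0, limma 3.58.1 (voom, and trend on log2(TPM + 1)), other scaling and filters, marker covariates, libraries left out, a replicate block and WT groups by title. The scripts were tested on simulated data. The 30 members are all named, and the 6 partner genes with the smallest p were to be named, of which 1 is not reported here. Members and lists were chosen with earlier results of these data known. Replicates differed by more than counting noise (chi-square per degree of freedom 29.7 to 156.2).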

Additional observations from a re-analysis of the deposited data

Results flagged for a closer look

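In 4 members each WT library with rosiglitazone lay on one side of the mean log2 CPM of WT on the diet, and each KO library with rosiglitazone lay on the other side of the KO diet mean. For Slc7a5 the difference was -1.15 in WT and 0.33 in KO, so the rosiglitazone difference was 1.48 higher in KO than in WT. For Abat it was -0.87 in WT and 0.39 in KO, a gap of 1.26. Without the B-cell-poor libraries the fitted WT difference of Abat was 0.11, so its sign in WT rests on them. For Mccc1 the rosiglitazone difference was 0.66 in WT and -0.16 in KO, a gap of -0.82. For Auh it was 0.50 in WT and -0.16 in KO, a gap of -0.66. The interaction itself was tested for each with edgeR and none passed, with adjusted p of 0.22 for Slc7a5, 0.548 for Abat, 0.485 for Mccc1 and 0.365 for Auh. With WT grouped by title the WT values change sign.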

How the results depend on the processing

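Counts of members called depended on the setting, and the cause was not tested. For rosiglitazone in WT, 4 members higher and 1 lower became 15 higher by DESeq2, 7 by limma-voom, 0 and 0 by limma-trend on log2(TPM + 1), 10 and 0 with the adipocyte marker covariate, 0 and 0 with a muscle marker covariate or without the muscle-rich libraries, 1 and 0 with only the 2 groups compared, 27 higher without the B-cell-poor libraries, and 1 higher and 4 lower by title. For rosiglitazone in KO, 2 were higher with the adipocyte covariate and 5 without the B-cell-poor libraries. For KO on the diet, 1 lower became 8 by DESeq2, 24 by title, 16 without the B-cell-poor libraries, 2 (and 7 higher) with the adipocyte covariate, and 0 by limma-trend, with the muscle covariate, without the muscle-rich libraries and with only the 2 groups. For KO with rosiglitazone, 26 lower became 7 by title, 2 without the muscle-rich libraries and 1 with the adipocyte covariate, and 1 higher became 0 by limma-trend, by title and without the muscle-rich libraries, and 2 with the covariate. Averaged over treatments, 23 lower became 7 without the muscle-rich libraries and 1 with the covariate, and 0 higher became 1 by DESeq2 and 4 with the covariate. The interaction gave 1 higher and 1 lower by DESeq2. The B-cell-poor setting and the coding shares were chosen after seeing the data. For scale, the adipocyte covariate fit called 434 of all 26960 genes higher for rosiglitazone in KO. For KO on the diet it called 2977 higher and 1807 lower. Averaged over treatments it called 2755 higher, so 4 of 30 members is near the share of all genes. For rosiglitazone in WT limma-voom called 2.79% of genes in either direction. Member counts with no share of all genes given for their setting are not results about the members.

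With the replicate number as a block, rosiglitazone in WT gave 4 members higher and 0 lower and KO on the diet gave 0 lower. Same-numbered libraries did not deviate together (15 pairs, r from -0.60 to 0.74), so the number was not taken to pair them.

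By title, log2 differences for rosiglitazone in WT were 1.13 for Slc7a5, -1.10 for Bcat2, -1.70 for Bckdha, -1.13 for Echs1, -1.04 for Mmaa, -1.26 for Aacs and -2.24 for Etfb, and for KO with rosiglitazone 0.088 for Bckdk and 0.50 for Etfb. With the adipocyte covariate, the sign turned for 18 members in KO with rosiglitazone, 21 averaged over treatments and 24 on the diet. Of genes called without it, those that turned in KO with rosiglitazone were Slc3a2 (0.87), Slc25a44 (0.59), Bcat1 (1.73), Bckdha (0.24), Bckdhb (0.50), Dbt (0.34), Dld (1.15), Bckdk (0.47), Oxct1 (1.57), Acat1 (0.50), Acadsb (0.57), Acad8 (0.072), Hsd17b10 (0.46), Hibadh (0.39), Pcca (0.12), Pccb (0.19) and Etfb (0.67), and averaged over treatments they were Slc25a44 (0.89), Bckdha (0.51), Bckdhb (0.56), Dbt (0.26), Oxct1 (1.24), Acat1 (0.84), Acadsb (0.50), Acad8 (0.31), Echs1 (0.14), Hsd17b10 (0.65), Hibadh (0.55), Abat (0.62), Pcca (0.33), Pccb (0.31), Mmab (0.038), Aacs (0.13), Etfb (1.04) and Slc1a5 (0.042). Of the log2 ratios, Bckdk to Ppm1k by genotype became 0.042 from CPM, and Bckdk to Bckdha by rosiglitazone passed at -0.54 from CPM. By title the rosiglitazone effects became -0.74 for Bcat1 to Bcat2, -0.35 for Bckdk to Ppm1k, 0.33 for Bckdk to Bckdha and 1.41 for Slc7a5 to Slc25a44, and Slc7a5 to Slc25a44 by genotype passed at 1.85. Bckdk to Bckdha by genotype was 0.93 without the muscle-rich and 0.89 without the B-cell-poor libraries, where the exact test allows no p below 0.0556 and 0.0333.

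Leaving out 1 library at a time gave 0 to 24 members higher and 0 to 1 lower for rosiglitazone in WT, 0 to 2 lower for KO on the diet, 19 to 28 lower and 1 higher for KO with rosiglitazone, and 20 to 28 lower and 0 to 1 higher averaged over treatments. Shares of all genes are not given for these ranges, so they describe the settings and not the members. The log2 ratios then ranged by genotype from -0.90 to -0.11 for Bcat1 to Bcat2, 0.71 to 0.95 for Bckdk to Bckdha, -0.97 to 0.18 for Bckdk to Ppm1k and 1.37 to 2.33 for Slc7a5 to Slc25a44, and by rosiglitazone from 0.043 to 0.83, -0.47 to -0.23, 0.27 to 1.42 and -1.43 to -0.46 in the same order.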
